A study of Caenorhabditis elegans with 165 samples.

Results

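The genes described here are 7 regulators of developmental timing in the nematode Caenorhabditis elegans, the heterochronic genes lin-14 (T25C12.1), lin-28 (F02E9.2), hbl-1 (F13D11.2), lin-41 (C12C8.3), lin-29 (W03C9.4), lin-42 (F47F6.1) and daf-12 (F11A1.3). They were chosen by name, with earlier results of these data known but by no measured value, from 20389 gene identifiers, and all 7 passed the filter on low counts that left 13186 genes for testing. The aim was to order the libraries in larval time. lin-14, hbl-1 and daf-12 lie on the X chromosome, lin-28 and lin-41 on chromosome I, and lin-42 and lin-29 on chromosome II.

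Heterochronic genes decide which stage-specific fate a cell takes at each larval stage, above all in the seam cells of the lateral epidermis. LIN-14, LIN-28 and HBL-1 act early, and each is switched off by microRNAs of the lin-4 and let-7 families as larvae grow. LIN-41 is held down late by let-7, which releases LIN-29, the factor that drives the switch from larva to adult. Adult worms also use part of this machinery elsewhere: LIN-41 acts in oocytes. The microRNAs themselves are not analysed here.

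RNA-seq was made from whole worms of 3 strains, with 4 libraries per strain numbered 1 to 4. N2 is the wild-type laboratory strain, 15eh1 carries a fusion of the X chromosome with chromosome V, and YPT41 a fusion of X with chromosome II. No treatment is named for these libraries. Their titles and stage labels name larvae from L1 to L3, the design text names L3, and the protocols given with them describe embryos for ChIP, so hours of growth are not known. Nothing says that libraries of a strain came from separate cultures, so p-values measure the spread between these libraries, which may be technical. No library of known age was used, so the values give an order among libraries and not a stage. In whole worms, fewer cells of a type and less RNA per cell cannot be told apart.

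Replicate 1 of each strain stood apart from the other 9 libraries in genes of adults and germ cells. The 6 yolk protein genes, made in the adult hermaphrodite intestine, took 12.2%, 12.58% and 6.81% of the gene counts in replicate 1 of N2, 15eh1 and YPT41, and between 0.000294% and 0.0449% elsewhere. Summed over the 12 oocyte and eggshell genes examined, the level was 5812 to 14100 CPM (counts scaled to a common library size) in replicate 1 and 29.8 to 86.7 CPM in the other libraries. Over 12 germline genes it was 2056 to 8768 against 100.3 to 203 CPM, and over 10 sperm genes 47.3 to 86.8 against 1.199 to 3.23 CPM. All 6 yolk, 12 oocyte and 12 germline genes, and the 3 sperm genes that passed the filter, were highest in replicate 1 in all 3 strains. Among all tested genes, 28.1% were. Of the sperm genes, msd-1 had 0 reads in all 12 libraries. The part of these transcripts in the results on replicate 1 was not tested. For the 7 genes, the test of the replicate number and the strain comparisons were also run on replicates 2 to 4. The chromosome medians, the comparison with neighbouring genes and the search for similar patterns used all 12 libraries only. Gene counts per library ranged from 8237095 to 31234047. The fewest reads behind a value of the 7 genes were 78, for lin-29 in YPT41 replicate 3, and the other 6 genes had at least 189 reads in every library.

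lin-14 and lin-28 were lowest in replicate 1 of every strain. LIN-14 is a nuclear protein that specifies the fates of the L1 stage and is a target of the lin-4 microRNA. Its level, in CPM scaled by the TMM method of edgeR, was 35.4, 154, 98.4 and 104 in N2 replicates 1 to 4, 39.9, 116, 114 and 88.5 in 15eh1, and 72.9, 118, 217 and 77.6 in YPT41. The 3 replicate 1 values lay below all 9 others, although YPT41 replicate 1 came close to YPT41 replicate 4. The mean of replicates 2 to 4 was 3.36 times the level of replicate 1 in N2, 2.66 times in 15eh1 and 1.88 times in YPT41. YPT41 replicate 3 had the highest lin-14 level of the 12 libraries.

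LIN-28 is an RNA-binding protein that supports the fates of the L2 stage and blocks the maturation of let-7. The level of lin-28 was 19.2, 50.2, 57.4 and 31 CPM in N2, 21.5, 60.5, 74.7 and 45.7 CPM in 15eh1, and 32.3, 63.5, 74.6 and 60.7 CPM in YPT41. The 3 replicate 1 libraries were the lowest of their strains, and among replicates 2 to 4 the lowest library was replicate 4 in all 3 strains. Replicate 1 of YPT41 lay above replicate 4 of N2, so replicate 1 did not separate from the other libraries across strains. The mean of replicates 2 to 4 was 2.40, 2.80 and 2.05 times that of replicate 1 in N2, 15eh1 and YPT41. A protein-coding gene, F02E9.1, overlaps lin-28 and stood at 3.57 to 19.5 CPM. Whether the counting used the strand is not given in the sources used here.

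hbl-1 did not follow the other early genes. It encodes a zinc finger factor related to Hunchback of Drosophila that supports L2 fates and is repressed by microRNAs of the let-7 family. Its level was 239, 77.6, 69.4 and 59.85 CPM in N2, 136, 83.9, 51.6 and 58.8 CPM in 15eh1, and 106, 53.4, 67.1 and 33.95 CPM in YPT41. Replicate 1 was the highest library of each strain, and the 3 replicate 1 values lay above all 9 others. Replicate 1 was 3.46, 2.102 and 2.06 times the mean of replicates 2 to 4 in N2, 15eh1 and YPT41.

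lin-41 and lin-29, which act at the end of larval life, were highest in replicate 1 of every strain. LIN-41 is a protein of the TRIM-NHL family that binds messenger RNAs, among them that of lin-29, and keeps late larval cells from turning adult. Its level was 497, 166, 157 and 205 CPM in N2, 483.5, 142, 148 and 121.5 CPM in 15eh1, and 215, 173, 170.0 and 101 CPM in YPT41. N2 and 15eh1 replicate 1 lay far above every other library, whereas YPT41 replicate 1 was barely above N2 replicate 4. Against the mean of replicates 2 to 4, replicate 1 was 2.82-fold higher in N2, 3.53-fold in 15eh1 and 1.46-fold in YPT41. The oocyte gene egg-1 stood at 391, 386 and 214 CPM in the same 3 libraries and at 0.807 to 3.21 CPM in the other 9.

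lin-29 encodes a zinc finger transcription factor that ends the molting cycle and turns on adult cuticle genes in the epidermis. Its level was 30.9, 6.87, 7.02 and 14.1 CPM in N2, 25.7, 6.70, 5.38 and 9.55 CPM in 15eh1, and 16.3, 5.53, 8.70 and 10.4 CPM in YPT41. The 3 replicate 1 libraries were the highest of the 12, and replicate 4 came next in each strain. Replicate 1 was 3.31-fold, 3.56-fold and 1.99-fold above the mean of replicates 2 to 4 in N2, 15eh1 and YPT41. The gene hmg-12, which encodes a high mobility group protein, overlaps lin-29 in the gene table. It stood at 371, 375 and 228 CPM in replicate 1 of N2, 15eh1 and YPT41 and at 19.55 to 55.2 CPM in the other 9 libraries. hmg-12 therefore moved with lin-29 in replicate 1, and its part in the lin-29 counts was not tested. In N2 and YPT41 hmg-12 was also highest in replicate 4 among replicates 2 to 4, at 31.8 and 55.2 CPM, while in 15eh1 replicate 4 was the lowest at 20.0 CPM.

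lin-42 was lowest in replicate 1 and highest in replicate 4 in all 3 strains. LIN-42 is related to the Period clock proteins of flies and mammals, and its transcript rises and falls within each larval stage. Its level was 216, 367, 322 and 569.5 CPM in N2, 195, 289.9, 269.8 and 391 CPM in 15eh1, and 189.9, 253, 311.5 and 358 CPM in YPT41. The 3 replicate 1 values lay below all 9 others, within a narrow range across strains. The mean of replicates 2 to 4 was 1.94, 1.63 and 1.62 times that of replicate 1 in N2, 15eh1 and YPT41. Replicate 4 of N2 stood above every other library.

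daf-12 was the gene on which the strains differed in their replicate 1. It encodes a nuclear receptor for dafachronic acids, steroid hormones that select reproductive growth over the dauer larva, and it also acts on the let-7 family. Its level was 252.5, 106, 143 and 156 CPM in N2, 229, 127, 98.15 and 100.1 CPM in 15eh1, and 69.9, 109, 83.2 and 48.0 CPM in YPT41. Replicate 1 was the highest library of N2 and of 15eh1 but lay within the range of the other libraries in YPT41. Replicate 1 was 1.87-fold and 2.11-fold above the mean of replicates 2 to 4 in N2 and 15eh1, and in YPT41 it was 0.872 of that mean. A level in YPT41 replicate 1 below those of N2 and 15eh1 was not particular to daf-12. It was also seen for hbl-1, lin-41, lin-29 and lin-42, while lin-14 and lin-28 went the other way.

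**Figure D1:**
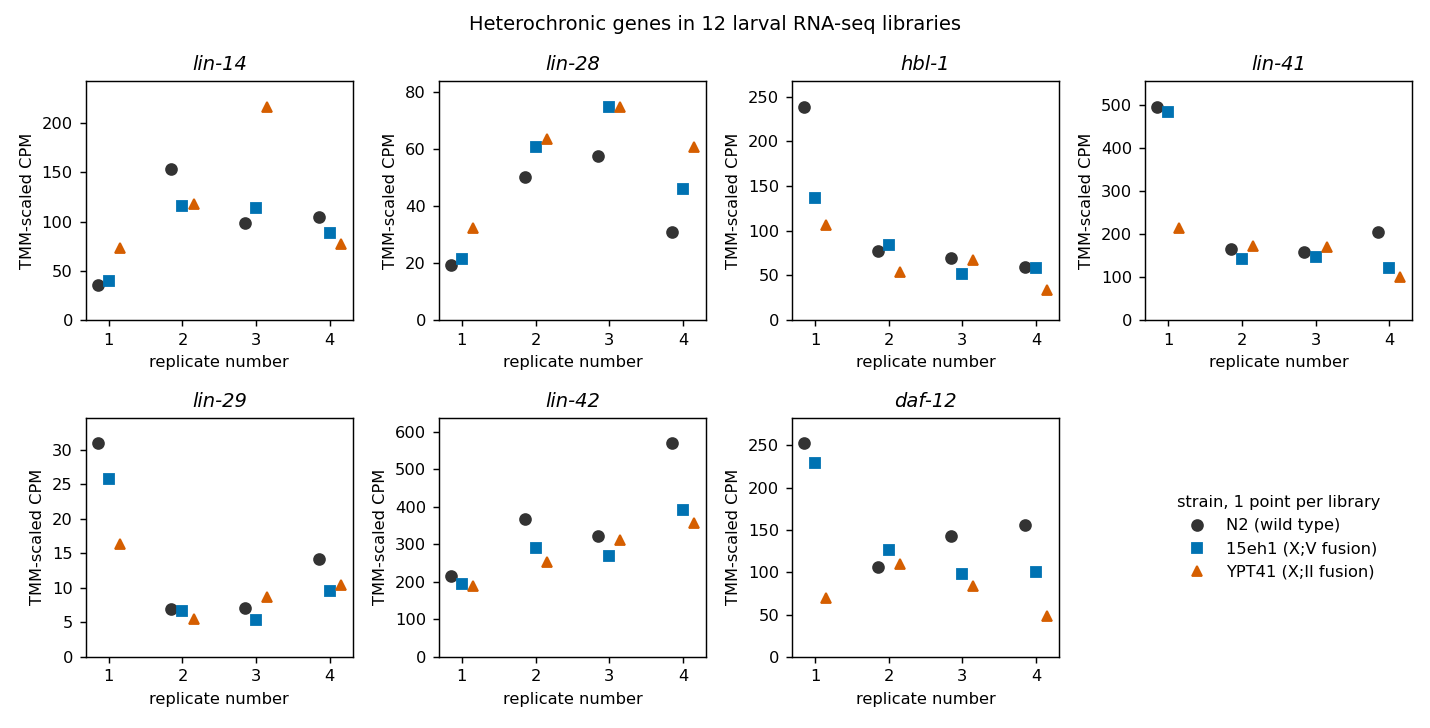
Level of each of the 7 heterochronic genes in every library, in TMM-scaled CPM on linear axes starting at 0, by replicate number and strain, with 1 point per library. Replicate 1 is the lowest library of each strain for lin-14, lin-28 and lin-42 and the highest for hbl-1, lin-41 and lin-29, while for daf-12 YPT41 replicate 1 (69.9 CPM) lies far below those of N2 (252.5 CPM) and 15eh1 (229 CPM).

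Across the 7 genes, replicate 1 was lowest in all 3 strains for 3 genes, highest in all 3 for 3 genes and mixed for daf-12. Such placement was common: of the 13186 tested genes, 28.1% were highest and 27.2% lowest in replicate 1 of all 3 strains. Within replicates 2 to 4, lin-42 and lin-29 were highest in replicate 4 in all 3 strains, as were 11.6% of tested genes. lin-28 was lowest there in all 3 strains, as were 9.24% of tested genes. The other 4 genes had no common place for replicate 4.

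The level of 6 of the 7 genes differed with the replicate number, beyond the spread between libraries left after strain and replicate number. The edgeR quasi-likelihood F test with strain and replicate number in the model, adjusted by the Benjamini-Hochberg method over 13186 genes with a threshold of 0.05, called 53.7% of all genes. Whether the share among the timing genes differs from that of all genes was not tested. The adjusted p was 0.000351 for lin-29, 0.000506 for lin-28, 0.00134 for hbl-1, 0.00434 for lin-41, 0.00698 for lin-42 and 0.00798 for lin-14. daf-12 did not pass (adjusted p = 0.186). DESeq2 called the same number of the 7 genes, with 59.4% of all genes called. lin-41 no longer passed without 15eh1 replicate 1 (edgeR adjusted p = 0.0599), which left 5 of the 7 genes called.

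The test of the replicate number rested on replicate 1. In the 9 libraries of replicates 2 to 4, edgeR called 0 of the 7 genes and 0.0% of 13299 genes, with 1186 genes at an unadjusted p under 0.05. Unadjusted p-values under that limit among the timing genes were 0.0178 for lin-28, 0.0241 for lin-29 and 0.0412 for lin-42, with adjusted p-values of 0.467, 0.496 and 0.538. These are the 3 genes for which replicate 4 had the same place in every strain. The adjusted p of the other 4 genes lay between 0.678 for lin-14 and 0.907 for lin-41.

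Differences between an early and a late gene within a library depend little on the scaling between libraries. They are given as log2 CPM of the early gene minus log2 CPM of lin-29. Neither level is per length, so only the change between libraries can be read, as a description with no test. For lin-14 minus lin-29 the difference in replicates 1 to 4 was 0.19, 4.46, 3.79 and 2.87 in N2, 0.63, 4.09, 4.38 and 3.20 in 15eh1, and 2.15, 4.38, 4.62 and 2.89 in YPT41. Replicate 1 ranged from 0.19 to 2.15, replicate 4 from 2.87 to 3.20, and replicates 2 and 3 from 3.79 to 4.62. These 3 ranges did not overlap, and by this measure replicate 1 was lowest, replicate 4 between, and replicates 2 and 3 highest in each strain. YPT41 replicate 1 lay nearer to the replicate 4 libraries than replicate 1 of N2 and 15eh1 did.

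lin-28 minus lin-29 gave the same order, but it is not independent of lin-14 minus lin-29, since both hold the same lin-29 values. lin-29 alone split the libraries in this way. It stood at 16.3 to 30.9 CPM in replicate 1, 9.55 to 14.1 CPM in replicate 4 and 5.38 to 8.70 CPM in replicates 2 and 3. The lin-28 minus lin-29 difference ranged from −0.68 to 0.98 in replicate 1, from 1.13 to 2.54 in replicate 4 and from 2.85 to 3.77 in replicates 2 and 3. With lin-41 as the late gene, the place of replicate 4 was not kept: lin-28 minus lin-41 ranged from −4.69 to −2.73 in replicate 1, from −2.72 to −0.74 in replicate 4 and from −1.72 to −0.98 in replicates 2 and 3. Replicate 4 was the lowest of replicates 2 to 4 in N2 and 15eh1 but the highest in YPT41. For hbl-1 minus lin-29 the ranges overlapped, from 2.40 to 2.95 in replicate 1, from 1.699 to 2.61 in replicate 4 and from 2.93 to 3.62 in replicates 2 and 3. The lowest hbl-1 difference was that of replicate 4 in N2 and YPT41 and of replicate 1 in 15eh1. The early genes thus parted from each other in replicate 1. lin-14 minus hbl-1 was −2.75, −1.77 and −0.54 in replicate 1 of N2, 15eh1 and YPT41 and between 0.46 and 1.69 in the other 9 libraries.

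**Figure D2:**
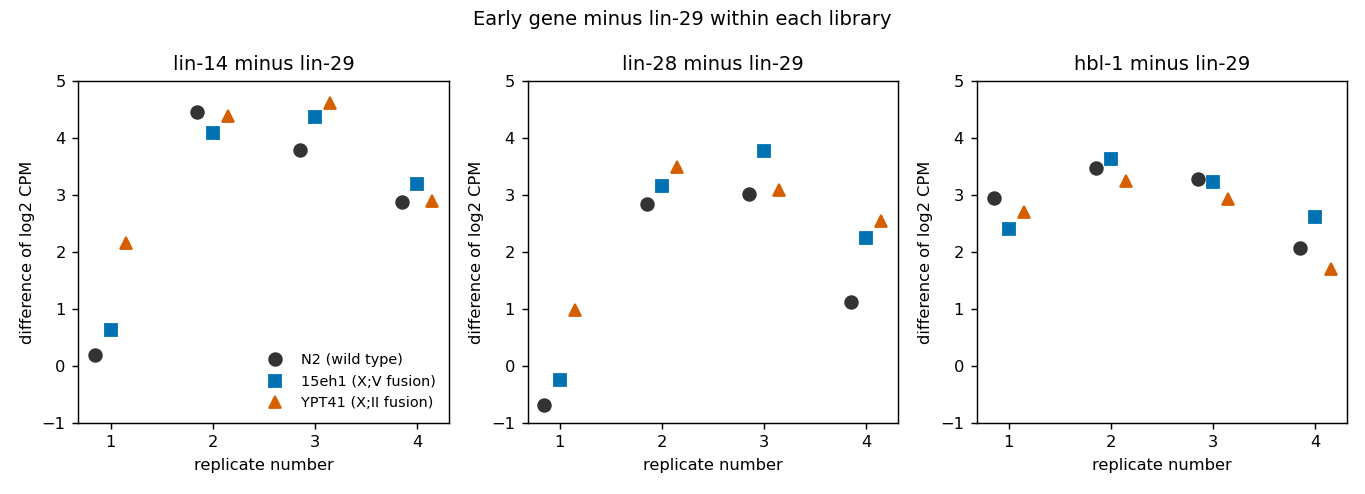
Difference of log2 CPM between an early heterochronic gene (lin-14, lin-28 or hbl-1) and lin-29 within each library, by replicate number and strain, with 1 point per library. For lin-14 and lin-28 replicate 1 lies below replicate 4 and replicate 4 below replicates 2 and 3, whereas for hbl-1 replicate 1 (2.40 to 2.95) and replicate 4 (1.699 to 2.61) overlap.

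Between strains, 0 of the 7 genes passed edgeR in any comparison, and for each gene the 4 libraries of every strain overlapped those of the others. Without replicate 1, lin-28 in N2 (31 to 57.4 CPM) lay wholly below YPT41 (60.7 to 74.6 CPM). lin-41 in N2 (157 to 205 CPM) then lay wholly above 15eh1 (121.5 to 148 CPM). All other ranges of the 7 genes still overlapped, and the share of all tested genes without overlap was not counted. The share of all 13186 genes called was 0.0% for 15eh1 against N2, 0.22% for YPT41 against N2 and 0.182% for 15eh1 against YPT41, with 206, 1163 and 760 genes at an unadjusted p under 0.05. DESeq2 called 0.0758%, 2.18% and 1.1% of genes and none of the 7. The first 2 comparisons share the N2 libraries. The median log2 fold change of the 7 genes was −0.25 in 15eh1 against N2, −0.52 in YPT41 against N2 and 0.21 in 15eh1 against YPT41, where all tested genes had medians of 0.01, 0.03 and −0.02.

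In the fit of all 12 libraries with strain as the only term, daf-12 alone of the 7 genes had an unadjusted edgeR p under 0.05. This was so in both comparisons of daf-12 with YPT41. Its mean level was 164 ± 62.4 CPM in N2, 138.5 ± 61.7 CPM in 15eh1 and 77.6 ± 25.6 CPM in YPT41 (SD, n = 4). The log2 fold change in YPT41 against N2 was −1.08 ± 0.38 (SE; edgeR unadjusted p = 0.0138, adjusted p = 0.363), and YPT41 was the lower of the pair in 3 of 4 replicate numbers. In 15eh1 against YPT41 it was 0.84 ± 0.37 (edgeR unadjusted p = 0.0453, adjusted p = 0.846), with 15eh1 higher in 4 of 4. In 15eh1 against N2 it was −0.25 ± 0.37. Among replicates 2 to 4 the log2 fold change in YPT41 against N2 was −0.85 (adjusted p = 0.203 by edgeR), and in 15eh1 against YPT41 it was 0.50. By mean level the order of strains was N2, 15eh1, YPT41, and none of the 3 comparisons passed the threshold. Replicate 2 did not keep this order, at 106, 127 and 109 CPM in N2, 15eh1 and YPT41.

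lin-28 was higher in both fusion strains than in N2 in every replicate number, without passing the test. Its mean was 39.4 ± 17.5 CPM in N2, 50.6 ± 22.7 CPM in 15eh1 and 57.8 ± 18.0 CPM in YPT41 (SD, n = 4). The fusion strains lay above N2 in 4 of 4 replicate numbers each, with log2 fold changes of 0.36 ± 0.44 and 0.55 ± 0.44 (SE). Libraries of equal number are not known to be pairs. The share of all genes with 4 of 4 in the same direction was not counted, so such counts are only descriptions. lin-14 had no common direction: it was higher in YPT41 than in N2 in 2 of 4 replicate numbers, at 121 ± 66.7 against 97.9 ± 48.5 CPM, and 89.5 ± 35.4 CPM in 15eh1. hbl-1 was lower in YPT41 than in N2 in 4 of 4 replicate numbers, at 65.2 ± 30.5 against 111 ± 85.3 CPM. The log2 fold change was −0.77 ± 0.51, and became −0.16 without N2 replicate 1 and −1.19 without YPT41 replicate 1. In replicates 2 to 4 of every strain it was −0.52 ± 0.28. In 15eh1 hbl-1 stood at 82.6 ± 38.3 CPM.

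lin-42 was lower in both fusion strains than in N2 in 4 of 4 replicate numbers. Its mean was 368.5 ± 148 CPM in N2, 286.5 ± 80.9 CPM in 15eh1 and 278 ± 72.7 CPM in YPT41 (SD, n = 4). The log2 fold changes were −0.36 ± 0.33 in 15eh1 and −0.41 ± 0.33 in YPT41 (SE), each about the size of its error in this fit. With the replicate number kept in the model they were −0.33 ± 0.18 and −0.36 ± 0.18 (edgeR adjusted p = 0.987 and 0.262). lin-41 and lin-29 were lower in 15eh1 than in N2 in 4 of 4 replicate numbers, by small differences of −0.20 ± 0.51 and −0.32 ± 0.61 on the log2 scale. lin-41 averaged 256 ± 162, 224 ± 174 and 165 ± 47.1 CPM in N2, 15eh1 and YPT41, and lin-29 averaged 14.7 ± 11.3, 11.8 ± 9.403 and 10.2 ± 4.53 CPM. With SDs this wide the order of strains for these genes is not separated from the spread between libraries.

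Keeping the replicate number in the model narrowed the errors without a call among the 7 genes. With this replicate block edgeR called 0.0683%, 5.2% and 1.83% of genes in 15eh1 against N2, YPT41 against N2 and 15eh1 against YPT41. In YPT41 against N2 the lowest adjusted p-values of the 7 were 0.0658 for lin-28 (0.61 ± 0.17), 0.0717 for daf-12 (−1.04 ± 0.30) and 0.132 for hbl-1 (−0.64 ± 0.23). Their unadjusted edgeR p-values were 0.00446, 0.00523 and 0.0185, where 23.2% of all genes were under 0.05. With the block in replicates 2 to 4, daf-12, lin-42 and lin-28 had unadjusted edgeR p-values of 0.0193, 0.0236 and 0.0312 in YPT41 against N2. There 18.6% of all genes were under 0.05, and the lowest adjusted p of the 7 was 0.19. In replicates 2 to 4 without the block edgeR called 0.015%, 1.01% and 0.556% of 13299 genes and again 0 of the 7. There the sign of lin-41 and of lin-29 turned in 15eh1 against YPT41, from 0.44 to −0.04 and from 0.21 to −0.08.

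**Figure D3:**
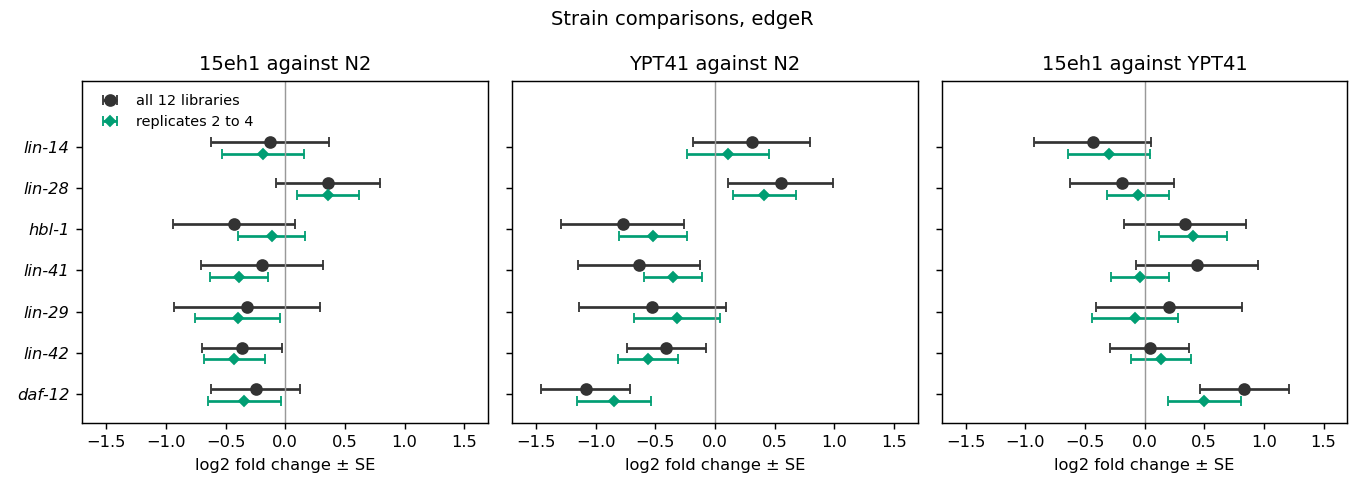
Log2 fold change with its standard error for the 7 heterochronic genes in the 3 strain comparisons, from edgeR with strain as the only term, for all 12 libraries and for replicates 2 to 4. The point farthest from 0 is daf-12 in YPT41 against N2, at −1.08 with all libraries and −0.85 in replicates 2 to 4, and 0 of the 7 genes passed the threshold in any comparison.

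Some of these genes lie on the chromosomes that the fusions join. lin-42 is the 263rd of 3446 protein-coding genes counted along chromosome II, which places it 7.63% of the way from the left end, and lin-29 lies at 83.4%. Which ends are joined is not in the labels. Among the 40 tested genes nearest to lin-42, 20 on each side, the median log2 fold change in YPT41 against N2 was −0.17 with quartiles of −0.53 and 0.08, and 0 were called. lin-42, at −0.41, lay inside these quartiles. In 15eh1, where II is not fused, the same 40 genes had a median of 0.08 with quartiles of −0.07 and 0.24, and lin-42, at −0.36, lay below them. The 40 genes nearest to lin-29 had a median of 0.03 in YPT41 against N2 with quartiles of −0.38 and 0.57, and lin-29, at −0.52, lay below them. On X, which is joined in both fusion strains, the median of 1998 tested genes was 0.16 in YPT41 against N2 and 0.04 in 15eh1 against N2, while hbl-1 and daf-12 had negative fold changes in both comparisons. lin-14 was at 0.31 in YPT41 against N2 and −0.13 in 15eh1 against N2.

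Genes with the most similar pattern were sought by the root mean square difference of log2 CPM, each gene centred on its own mean, over the 12 libraries. For lin-14 they were grk-2, a kinase of G protein coupled receptors (0.20), and mtcl-1 (0.21), and for lin-28 the phosphodiesterase gene pde-3 (0.17) and R06C1.6 (0.18). rfp-1 (0.16) and tmem-131 (0.16) were closest to lin-41, and pqn-21 (0.17) and nkcc-1 (0.23) to hbl-1. For lin-42, samt-1 (0.16) was among the closest. lin-29 was nearest to swp-1 (0.22) and to the ceramide synthase gene hyl-1 (0.26), and daf-12 to the coatomer gene copb-2 (0.28) and vgln-1 (0.30). Among the 7 genes themselves, lin-14 and lin-28 were each other's nearest (0.40), as were lin-41 and hbl-1 (0.33). lin-29 and daf-12 were nearest to lin-41 (0.47 and 0.43), and lin-42 to lin-14 (0.62). The difference between replicate 1 and the rest, which the strains share, weighs most in this measure. Libraries of equal number among replicates 2 to 4 shared less. Their deviations from the strain mean had correlations of −0.12 to 0.44 between strains.

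Of 20 other genes of the timing pathway, 7 were called for the replicate number by the edgeR F test, where 53.7% of all genes were. Over the whole list, 6 of the 20 were highest in replicate 1 of all 3 strains, near the 28.1% of all genes. flh-1, a FLYWCH zinc finger gene that represses microRNA genes in embryos, stood at 96.8, 97.3 and 62.9 CPM in replicate 1 of N2, 15eh1 and YPT41 and at 2.58 to 5.31 CPM in the other 9 libraries (adjusted p = 1.6e-07). mab-10, a NAB cofactor that works with LIN-29, stood at 102.5, 65.3 and 41.6 CPM against 3.82 to 12.83 CPM (edgeR adjusted p = 6.43e-05). The other genes with the lowest adjusted p were hrpk-1, an hnRNP K homolog (5.06e-05), and tim-1, a Timeless homolog (0.000692). lin-46 and dre-1, which were picked out after their values were seen, did not pass (edgeR adjusted p = 0.537 and 0.301).

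MicroRNA machinery genes were called in 10 of 14 cases, where 53.7% of all genes were called. Called or not, 9 of the 14 were highest in replicate 1 of all 3 strains, where 28.1% of all genes were. The subunits of the nuclear processing complex, drsh-1 and pash-1, stood at 38.8 to 57.8 and 40.8 to 106.5 CPM in replicate 1 and at 3.81 to 6.46 and 3.44 to 6.83 CPM elsewhere. pup-2, a poly(U) polymerase, and cgh-1, a DEAD-box RNA helicase, were called as well, with edgeR adjusted p-values of 9.89e-06 and 2.5e-06. cgh-1 reached 12600 CPM in N2 replicate 1 and 81.9 to 135.5 CPM outside replicate 1. The summed oocyte and germline genes, given above, moved with these genes in the same libraries, and their part was not tested.

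Of the 4 adult cuticle collagens tested, 3 were highest in replicate 1 of every strain, as lin-29 was. That place was held by 28.1% of all tested genes. col-19, a collagen gene of the adult cuticle and a target of LIN-29, stood at 868, 718 and 704 CPM in replicate 1 of N2, 15eh1 and YPT41, and at 0 to 7.29 CPM in the other 9 libraries (edgeR adjusted p = 4.78e-05). bli-1 and bli-2, collagens whose loss blisters the adult cuticle, were also highest in replicate 1 of every strain (edgeR adjusted p = 7.76e-07 and 0.000125). rol-6, a collagen of body shape, went the other way, with 59.2, 89.2 and 276 CPM in replicate 1 against 318 to 525 CPM elsewhere. All 4 tested collagens of the list were called, as 53.7% of all genes were, and col-7 did not pass the filter on low counts. In N2 and 15eh1 col-19 did not share the intermediate place of replicate 4 that lin-29 had: it was 0.179, 0.129 and 3.88 CPM in replicate 4 of N2, 15eh1 and YPT41.

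Molting genes were called in 9 of 18 cases, near the background share. Whether called or not, 8 of the 18 were lowest in replicate 1 of all 3 strains, where 27.2% of all genes were. nhr-23, the nuclear receptor that drives molting, was highest there instead, with 246, 165 and 60.7 CPM in replicate 1 of N2, 15eh1 and YPT41 and 21.1 to 57.45 CPM elsewhere. noah-2, an apical matrix gene, was at 182 to 243.5 CPM in replicate 1 and 360 to 709 CPM elsewhere, with qua-1 and grh-1 called as well (edgeR adjusted p = 0.00344 and 0.00142). In the list of seam cell and vulval regulators 8 of 13 were called, near the 53.7% of all genes. The Notch ligand apx-1 and the EGF gene lin-3 were highest in replicate 1, at 94.3 to 244 and 30.2 to 87.7 CPM, while the ligand lag-2 and the GATA factor elt-6 were lowest there. Of 8 body tissue markers 6 were called, against that same share. Counting uncalled genes too, 6 of the 8 were lowest in replicate 1 of all 3 strains, where 27.2% of all genes were. Among them was the pharyngeal myosin myo-2, at 316 to 553 CPM against 1332 to 1777 CPM.

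Dauer formation genes, read beside daf-12, were called in 6 of 12 cases, near the 53.7% of all genes. daf-16, the FOXO factor of insulin signalling, was at 668, 556 and 280.4 CPM in replicate 1 of N2, 15eh1 and YPT41 and 119.9 to 162 CPM elsewhere (edgeR adjusted p = 0.000317). daf-7, a TGF-beta ligand, and daf-5 were called too (adjusted p = 0.00244 and 0.00772). cut-1, a cuticlin gene of the dauer cuticle, had no common order across strains: it was 62.9, 0.140, 8.78 and 81.2 CPM in N2, 51.8, 0.564, 0.174 and 1.68 CPM in 15eh1, and 0.811, 0.221, 0 and 29.2 CPM in YPT41. Its 4 libraries above 10 CPM were replicates 1 and 4 of N2, replicate 1 of 15eh1 and replicate 4 of YPT41.

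In these 11 lists, with 122 tested genes, edgeR called 0 between strains and 0 by replicate number among replicates 2 to 4. At an unadjusted p under 0.05 there were 2 genes in 15eh1 against N2, 8 in YPT41 against N2 and 3 in 15eh1 against YPT41. By replicate number among replicates 2 to 4 there were 19 of 121 tested. Over all tested genes these 4 shares were 1.56%, 8.82%, 5.76% and 8.92%, and whether the lists differ from them was not tested. DESeq2 called 3 of the listed genes in YPT41 against N2, where it called 2.18% of all genes, and 0 in the other strain comparisons. In replicates 2 to 4 edgeR called 1 in YPT41 against N2, where 1.01% of all genes were called. With the replicate block, 3 of the 122 listed genes were called in YPT41 against N2, where 5.2% of all genes were called. All 3 were lower in YPT41: pan-1, a leucine-rich repeat gene of the timing list (−0.84 ± 0.20, SE, adjusted p = 0.0339), and the molting genes mlt-10 (−1.43 ± 0.26, adjusted p = 0.0122) and fbn-1 (−1.36 ± 0.24, adjusted p = 0.0117). Without the block their edgeR adjusted p-values were 0.314, 0.101 and 0.185. The timing list had median log2 fold changes of −0.12 in 15eh1 against N2 and −0.45 in YPT41 against N2, and the 14 microRNA machinery genes −0.12 and −0.38.

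**Figure D4:**
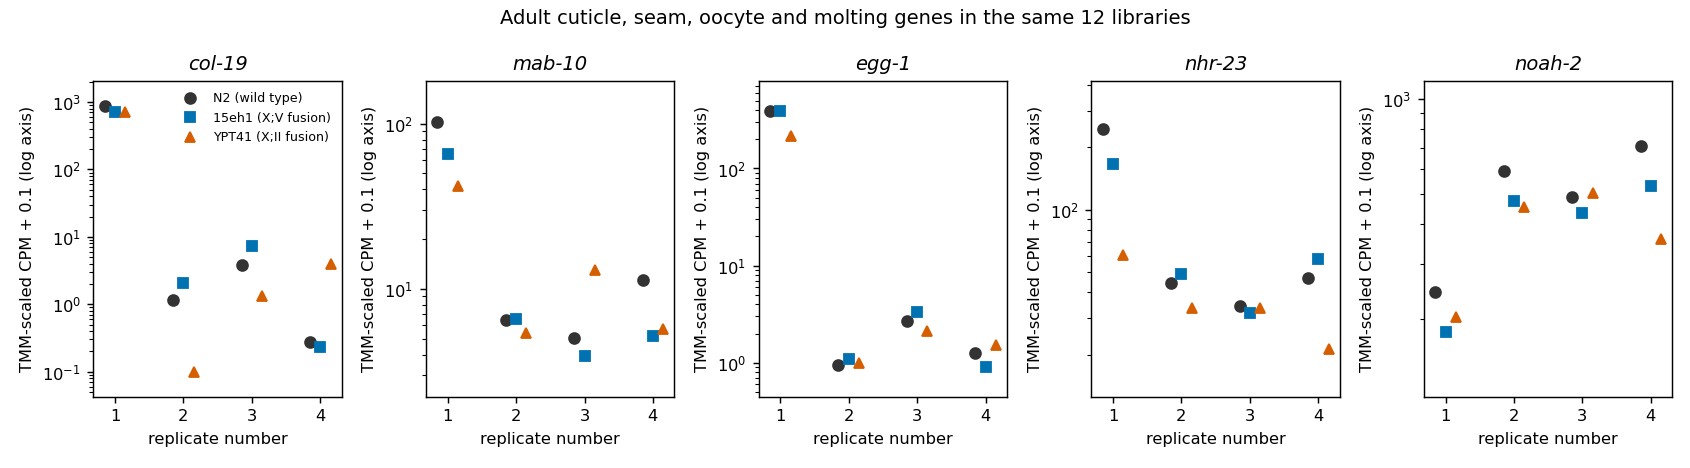
Level of col-19, mab-10, egg-1, nhr-23 and noah-2 in the 12 libraries, as TMM-scaled CPM plus 0.1 on log axes, by replicate number and strain. col-19, mab-10, the oocyte gene egg-1 (391, 386 and 214 CPM in replicate 1 of N2, 15eh1 and YPT41) and nhr-23 are highest in replicate 1, and noah-2 is lowest there.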

How the data were processed

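Whole counts of reads per gene were deposited by the authors as 1 table for each of 12 RNA-seq libraries. The submitters' processing notes name these tools, in no stated order or role: HTSeq, SAMtools 1.6, TopHat2 2.1.1, bedtools, MACS 1.4.3, Bowtie 1.2.0 and CASAVA 1.8. Genome build, annotation release and use of strand in counting are not stated in these sources. The other 153 samples of the series are not analysed here. Summary lines of the tables did not enter library sizes: 2.48% to 4.25% of reads had no feature, 0.656% to 0.893% were ambiguous and 13.2% to 22.7% were not unique in position. Of 20389 identifiers 19879 matched the RefSeq gene table of assembly WBcel235, used for symbols, chromosomes, overlaps and gene order.

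The 7 genes, the lists and the tests were chosen with earlier results of these data known. One fit of all 12 libraries, with strain as its term, was made in edgeR 4.0.16 (R 4.3.3) after TMM scaling and the filterByExpr filter by strain, and tested by quasi-likelihood. The replicate number was tested with 3 coefficients beside the strain. P-values are two-sided, adjusted by Benjamini-Hochberg over all tested genes. CPM are TMM-scaled, and log2 CPM use a prior count of 2. The fits were tested on simulated data with less spread than the strain-only fit found and with no replicate 1 apart. The power of the strain tests under the spread of these libraries was therefore not tested. Alternatives were the replicate block, replicates 2 to 4, 2 strains only, RLE scaling, no filter, DESeq2 1.42.0, and leaving out each library. Besides the 7 genes, the text names for each the 2 genes with the most similar pattern (1 of those for lin-42 is not reported here), and from each list at most 4 called genes with the lowest adjusted p per comparison. Others are said to be chosen after their values were seen, overlap a member, or are markers checked for reads.

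Whether equal replicate numbers pair the libraries was judged from deviations from the strain mean. Their correlations were 0.319 to 0.942 (12 of 12 above the limit of 0.1), but −0.12 to 0.44 within replicates 2 to 4 (4 of 9 above it), so replicate 1 carries most of the pairing. Within a strain no library repeated another (lowest chi-square per gene 22.5). At 3 counts a gene stands at 0.0960 to 0.364 CPM, a floor that covers counting error only.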

Additional observations from a re-analysis of the deposited data

Results flagged for a closer look

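The level of lin-41 was 497 CPM in N2 replicate 1 and 483.5 CPM in 15eh1 replicate 1, and the level of hbl-1 was 239 CPM in N2 replicate 1. In each case the library lay apart from the other 3 of its strain by more than Dixon's critical value for 4 samples (0.829 of the whole range). These were 3 of 24 groups of 4 libraries examined, which were the 7 genes and the lin-14 minus lin-29 difference in each strain, and chance alone marks about 1 group in 20. All 3 libraries are replicate 1 libraries, in which yolk and oocyte genes were high.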

How the results depend on the processing

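The count of 6 of 7 genes called by replicate number became 0 in replicates 2 to 4, a fit with 9 libraries and without the libraries that stood apart, and lay between 5 and 6 when single libraries were left out. The counts of 0 between strains stayed at 0 under every alternative run, the replicate block included. Of 399 fold changes of single genes under an alternative, 20 turned sign and 0 were called, and the cause was not tested. In 15eh1 against YPT41, lin-41 turned to −0.041 in replicates 2 to 4 and −0.022 with the replicate block added, and lin-29 to −0.084 and −0.098. Leaving out single libraries gave these ranges with a change of sign. In 15eh1 against N2 they were −0.43 to 0.18 for lin-14, −0.90 to 0.31 for lin-41, −0.78 to 0.23 for hbl-1, −1.02 to 0.30 for lin-29 and −0.60 to 0.0045 for daf-12. In YPT41 against N2 they were −0.15 to 0.59 for lin-14 and −0.94 to 0.036 for lin-29. In 15eh1 against YPT41 they were −0.54 to 0.038 for lin-14, −0.36 to 0.068 for lin-28, −0.26 to 0.64 for lin-41, −0.13 to 0.25 for lin-42 and −0.49 to 0.59 for lin-29. The biological coefficient of variation was 0.638 with strain only and 0.297 with the replicate block.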
